A study of Xenopus laevis with 3 samples.

Results

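Forkhead transcription factors were examined in *Xenopus laevis* embryos at stage 11, during gastrulation, across 3 Affymetrix GeneChip *X. laevis* Genome 2.0 arrays. The family was taken as the probe sets whose single platform gene symbol begins with fox, then a subfamily letter and a digit, and 52 of the 32539 probe sets fulfilled this. They cover 42 genes of 15 subfamilies, out of 81 forkhead genes in the RefSeq annotation of assembly Xenopus_laevis_v10.1, and the gene IDs of all 42 matched that annotation under the same symbol. A further 3 forkhead probe sets carry several symbols and were left out.

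The conditions were GlyR+IVM, in which embryos received mRNA of the glycine-gated chloride channel and were bathed in its opener ivermectin, DN-KATP, in which they received mRNA of the dominant-negative potassium channel construct 666 chimera, and a control injected with water. The study cites earlier work in which construct 666, and the glycine-gated channel together with ivermectin, depolarized injected cells of frog embryos. The comparison asks which transcripts respond alike to an outflow of chloride and to a blocked potassium channel. No ivermectin is named for the DN-KATP and control embryos. Injections went into the animal pole, at the 1-cell stage by the study's methods and usually at the 4-cell stage by the description deposited with the data. Each condition is 1 array with the pooled RNA of 50 embryos, so no spread between replicates, test or p-value can be given, and the array cannot be told apart from the condition. In whole embryos, fewer cells of a type and less RNA per cell cannot be told apart either.

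Forkhead proteins bind DNA through a winged-helix domain and are named by subfamily letter. In the vertebrate gastrula they divide the germ layers among them: Foxa genes act in endoderm and dorsal midline, Foxc and Foxf genes in mesoderm, Foxd4l1 and Foxb genes in neural ectoderm, and Foxi genes in the remaining ectoderm, while Foxj1 switches on the genes of motile cilia and Foxh1 carries Nodal signals to the genome as a partner of Smad2. *X. laevis* is an allotetraploid, so many genes exist as a pair of homeologs, marked L and S after the subgenome.

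Over all probe sets the MAS5 signal had a median of 96.7 in GlyR+IVM, 101 in DN-KATP and 92.7 in control embryos. Because the values carry no present calls, a probe set was taken as measurable where its signal came to 40 or more. Of 18 gastrula marker names 15 had a probe set, and 14 of these reached this level, tbxt, vegt, gsc, sox17a and otx2 among them. Of 17 marker names of later tissues 13 had a probe set and 7 of these reached it, while 16 of their 29 probe sets stayed under it in every array. The skeletal and cardiac actin gene actc1.L had a signal of 2361 in GlyR+IVM, 1386 in DN-KATP and 939 in control embryos at 1 probe set, and the muscle myosin light chain gene mylpf.L had 132 in GlyR+IVM, 68.7 in DN-KATP and 43.4 in the control, so both of these muscle transcripts were highest in the GlyR+IVM array. Of the 7 later-tissue genes that reached 40, 6 had a probe set called higher in GlyR+IVM by the 2-fold rule given below (actc1, ckm, hba-l5, hba3, myh6 and mylpf), against 5.37% of named genes. In DN-KATP hba-l5 and hba3 were called higher, against 5.6%, and another probe set of hba-l5 was called lower, against 3.61%. By mean ratio 6 of 7 were above the control in each depolarized array, beside 48.5% and 48.9% of named genes. Their median log2 ratios were 1.28 for GlyR+IVM and 0.52 for DN-KATP. Summed over the 29 probe sets, the signal was 17481 in GlyR+IVM, 7583 in DN-KATP and 10519 in control embryos, a sum in which a single globin probe set of hba-l5.L held 7827 in GlyR+IVM, 1527 in DN-KATP and 6373 in the control. Whether this bears on the forkhead values was not tested.

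A signal of at least 40 was reached in some array by 42 of the 52 forkhead probe sets, covering 35 genes, and in every array by 38. The 10 that stayed under 40 throughout are all probe sets of foxd2.S, foxe3.L, foxj2, foxo1.L, foxp2.L and foxp3.L, together with 1 of foxh1.L and 1 of foxo3.L. The lens gene foxe3.L, for example, had 14.7 in GlyR+IVM, 10.5 in DN-KATP and 2.72 in control embryos, and the insulin-responsive gene foxo1.L had 3.15 in GlyR+IVM, 26.6 in DN-KATP and 22.3 in control embryos. Ratios at such signals carry no weight and are left out below.

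**Figure D1:**
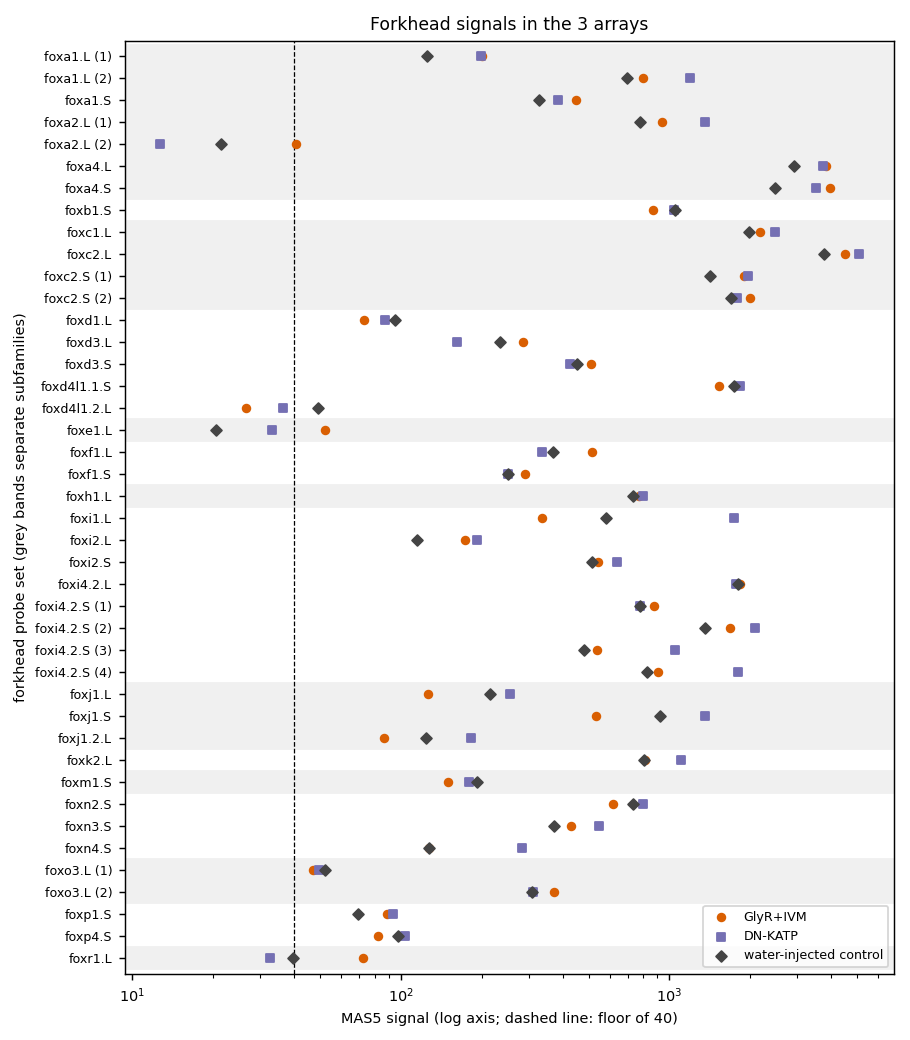
MAS5 signals (log axis) of the 42 forkhead probe sets that reached 40 in some array, with GlyR+IVM as circles, DN-KATP as squares and the water-injected control as diamonds, and numbers in parentheses for probe sets of the same gene. The symbols of a row lie close together for most probe sets and apart for foxi1.L, where DN-KATP had 1739 and the control 581, and levels are not comparable between rows.

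A probe set was called when the higher of 2 arrays was at least 2-fold above the other and at least 40. By this rule 1 of the 42 forkhead probe sets was higher in GlyR+IVM than in the control and 0 were lower, against 4.83% and 2.86% of the 23003 probe sets that reached 40. In DN-KATP 4 were higher and 0 lower, against 5.49% and 2.58%. The numbers called in both depolarized arrays were 0 higher and 0 lower, where 1.77% and 0.665% of all probe sets were called. With so few calls, and with 2 of those in DN-KATP resting on the same target, nothing about the family as a whole can be read from these numbers. Between the depolarized arrays themselves, 5 forkhead probe sets were at least 2-fold higher in DN-KATP than in GlyR+IVM, against 4.65% of all, and 2 were lower, against 3.35%. Of any size, 27 of the 42 were above GlyR+IVM in DN-KATP, against 53.3%.

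Ratios of any size were summarised for the same 42 probe sets. The median log2 ratio of the 42 probe sets to the control was 0.17 for GlyR+IVM and 0.28 for DN-KATP, beside 0.01 and 0.05 over all 23003 probe sets. In GlyR+IVM 29 of the 42 were above the control and in DN-KATP 30, while 51.5% and 55% of all probe sets were. Among the 42, foxe1.L, foxr1.L and a weak probe set of foxa2.L reached 40 in GlyR+IVM alone, and foxd4l1.2.L in the control alone. For these the side of the control in GlyR+IVM was set by the floor. Scaled to the hybridization spike-ins the 42 had medians of -0.26 and -0.20, and all probe sets went to -0.42 and -0.43, so the sign depended on the scaling, while the family's medians lay above those of all probe sets on both scales. Most of the ratios lay between the 10th and 90th percentiles of all probe sets, which were -0.56 and 0.70 for GlyR+IVM and -0.54 and 0.77 for DN-KATP.

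**Figure D2:**
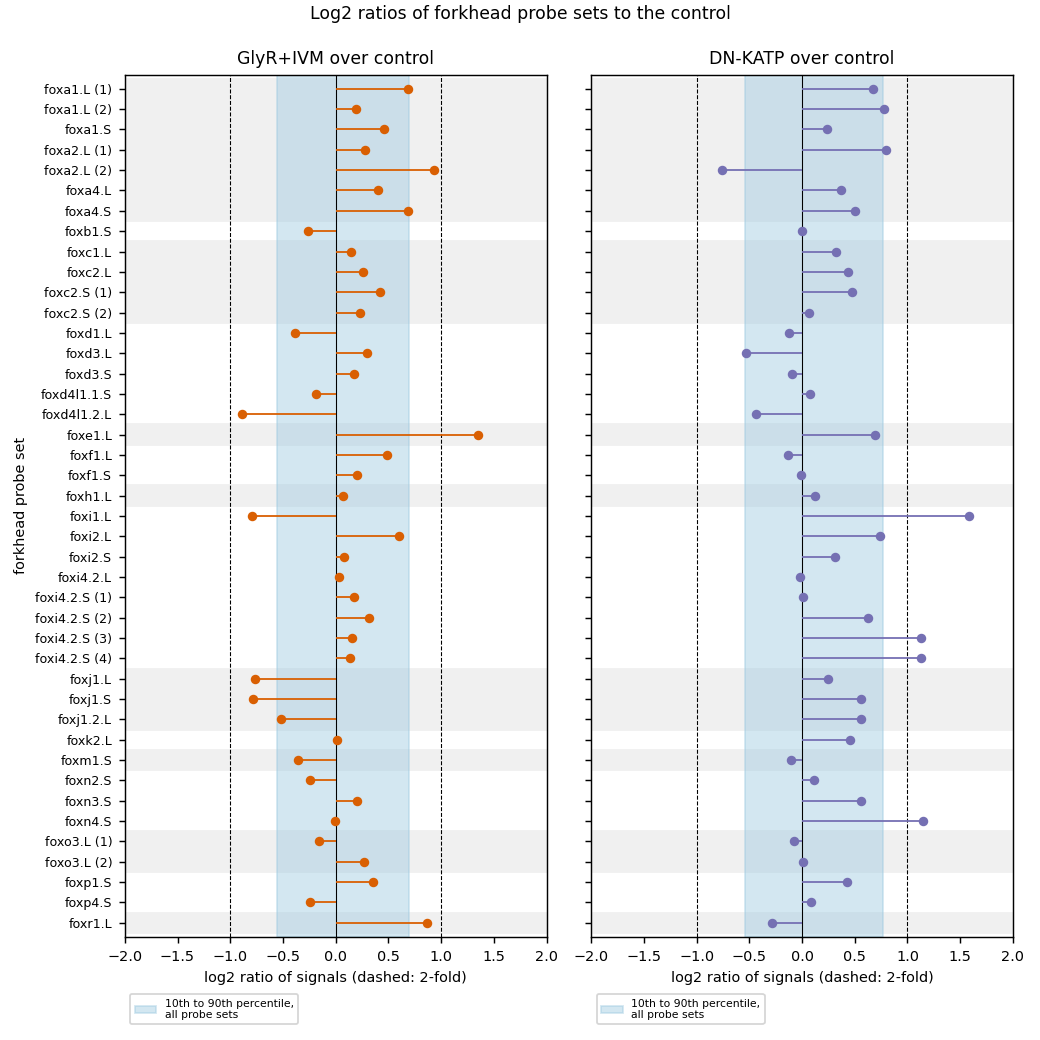
Log2 ratio of the signal in GlyR+IVM (left) and DN-KATP (right) to the water-injected control for the 42 forkhead probe sets that reached 40, with the 10th to 90th percentile of all 23003 such probe sets shaded and the same control array in both panels. Past 2-fold lie foxe1.L on the left, and foxi1.L, 2 probe sets of foxi4.2.S and foxn4.S on the right.

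Foxi1 is needed in the frog for ectoderm to form in place of mesoderm and endoderm, and later for the ionocytes of the skin. The probe set of foxi1.L had a signal of 334 in GlyR+IVM, 1739 in DN-KATP and 581 in control embryos. GlyR+IVM lay below the control and DN-KATP far above it. Its log2 ratios to the control were -0.80 for GlyR+IVM and 1.58 for DN-KATP. Set directly against GlyR+IVM, DN-KATP was 5.20-fold higher. The call over the control in DN-KATP was kept under quantile normalization, under a common array median, where the log2 ratio was 1.45, and on the spike-in scale.

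The maternal activator of foxi1 in the frog, foxi2, differed less. The homeolog foxi2.L had 173 in GlyR+IVM, 191 in DN-KATP and 114 in control embryos, and foxi2.S had 543 in GlyR+IVM, 639 in DN-KATP and 513 in the control. Both were above the control in each depolarized array and under 2-fold, with log2 ratios in DN-KATP of 0.74 for foxi2.L and 0.32 for foxi2.S. On the spike-in scale foxi2.S was below the control in both arrays.

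For foxi4.2.S, another ectodermal member, the 4 probe sets did not give the same ratios. A pair built on the same transcript cluster read 536 and 908 for GlyR+IVM, 1048 and 1807 for DN-KATP, and 481 and 827 for the control, so that DN-KATP was 2.18-fold above the control at both. These overlap in target, so they are not independent readings, and under a common array median both came to just under 2-fold. A further probe set had 1685 in GlyR+IVM, 2079 in DN-KATP and 1352 in control embryos. By their names, this one and the brighter of the pair are prone to cross-hybridization. The remaining probe set had 879 in GlyR+IVM, 780 in DN-KATP and 778 in the control, so DN-KATP and control were level there. The homeolog foxi4.2.L had 1837 in GlyR+IVM, 1777 in DN-KATP and 1796 in the control, with log2 ratios to the control of only 0.03 and -0.02. Over the 8 Foxi probe sets, 7 of them above the control in each array, the median log2 ratio was 0.15 for GlyR+IVM and 0.68 for DN-KATP. Of all probe sets 51.5% and 55% were above the control. The 8 cover only 5 genes, and 4 of the 8 belong to foxi4.2.S, the overlapping pair included, so they are not 8 independent readings. On the spike-in scale 1 and 5 of the 8 were above the control, beside 4285 and 4487 of all 23003 probe sets.

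Foxj1 is the regulator of motile cilia. Its homeolog foxj1.S had a signal of 535 in GlyR+IVM, 1355 in DN-KATP and 921 in control embryos, and foxj1.L had 126 in GlyR+IVM, 254 in DN-KATP and 214 in control embryos. The related gene foxj1.2.L had 86.4 in GlyR+IVM, 183 in DN-KATP and 124 in the control. In each of these probe sets GlyR+IVM was the lowest array and DN-KATP the highest. The log2 ratios to the control were -0.78, -0.76 and -0.52 for GlyR+IVM and 0.56, 0.25 and 0.56 for DN-KATP, for foxj1.S, foxj1.L and foxj1.2.L in this order, so none passed 2-fold against the control with the signals as deposited. Scaled to the spike-ins, foxj1.S and foxj1.L were past 2-fold lower in GlyR+IVM, at -1.22 and -1.20. Set directly against GlyR+IVM, DN-KATP was 2.53-fold, 2.02-fold and 2.12-fold higher, and these are 3 of the 5 forkhead probe sets called there. On the spike-in scale foxj1.L was below the control in DN-KATP, and foxj1.L also missed 2-fold over GlyR+IVM under a common array median, under quantile normalization and on the spike-in scale, at 0.94, 0.96 and 0.96 on the log2 scale. With 32 added to every signal foxj1.S was the only one of the 3 still at least 2-fold over GlyR+IVM.

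Foxn4, which in the frog takes part in forming multiciliated cells, and in the mouse in forming retinal cells, was called in DN-KATP. The probe set of foxn4.S had 127 in GlyR+IVM, 282 in DN-KATP and 128 in control embryos. GlyR+IVM and control were level, and DN-KATP was 2.21-fold above the control and 2.22-fold above GlyR+IVM. With 32 added to every signal its log2 ratio to the control was 0.98, just short of 2-fold, and on the spike-in scale 0.66.

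Of 24 gene names of motile cilia and multiciliated cells listed beside Foxj1, 15 had a probe set, and 13 of these reached 40. Their median log2 ratio was -0.08 for GlyR+IVM and 0.38 for DN-KATP, with 5 and 9 genes above the control. The 7529 named genes had medians of -0.01 in both and 48.5% and 48.9% above. On the spike-in scale 3 and 6 of the 13 were above the control, beside 1062 and 1057 of the 7529 named genes. The cyclin gene ccno, needed for the many centrioles of multiciliated cells, had 553 in GlyR+IVM, 1758 in DN-KATP and 1063 in control embryos for ccno.L, and 165 in GlyR+IVM, 488 in DN-KATP and 341 in control embryos for ccno.S. GlyR+IVM was the lowest and DN-KATP the highest array for both homeologs, as for foxj1. The gene mcidas.S, which starts the multiciliated programme, had 46.5 in GlyR+IVM, 109 in DN-KATP and 49.3 in the control. It was high in DN-KATP alone as for foxn4.S, but its other 2 signals were close to the floor of 40. The listed gene rfx2.S differed from both patterns, with 310 in GlyR+IVM, 398 in DN-KATP and 416 in the control, its highest array. Genes with a probe set called higher in DN-KATP were mcidas, spag6 and tekt2, and 0 were called lower, where 5.6% and 3.61% of named genes were called. In GlyR+IVM dnai2, spag6 and tekt3 were called higher and ccno and tekt2 lower, against 5.37% and 3.87%. Between the depolarized arrays ccno, mcidas and tekt2 were called higher in DN-KATP than in GlyR+IVM and tekt3 lower, against 5.62% and 4.34%. The calls of spag6 came from weak probe sets that differed among themselves. Structural genes of the axoneme followed no single direction. The homeolog tekt2.L, called lower in GlyR+IVM, had 10.3 in GlyR+IVM, 124 in DN-KATP and 73.4 in control embryos. Its partner tekt2.S, called higher in DN-KATP, had 52.6 in GlyR+IVM, 108 in DN-KATP and 47.6 in the control. The signals of tekt3.L were 107 in GlyR+IVM, 41.3 in DN-KATP and 49.9 in the control, and dnai1.L had 107 in GlyR+IVM, 121 in DN-KATP and 116 in control embryos. For dnai2.S they were 134 in GlyR+IVM, 105 in DN-KATP and 66.0 in the control. DN-KATP was the lowest array for rsph9.L and cfap298.L.

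Of 20 ectodermal genes listed beside Foxi, 18 had a probe set, and 16 of these reached 40. Their medians were 0.08 for GlyR+IVM and 0.43 for DN-KATP. Above the control were 11 and 14 genes, beside 48.5% and 48.9% of named genes. On the spike-in scale these were 2 and 7 genes, beside 1062 and 1057 of the 7529 named genes. DN-KATP was above GlyR+IVM for 15 of the 16, where this held for 50.1% of named genes. It also held for 9 of 13 cilia genes and, in lists given below, 15 of 19 G2 and M phase and 13 of 18 neural plate genes. The counts were 8 of 14 for Nodal pathway genes, 4 of 8 for Foxo targets, 4 of 12 for insulin pathway genes and 4 of 18 for dorsal and endodermal genes. Under a common array median DN-KATP was above GlyR+IVM for 11 of the 16 ectodermal genes, beside 3203 of the 7529 named genes. The ectodermal factor gata3.S had 161 in GlyR+IVM, 530 in DN-KATP and 245 in control embryos by 1 probe set and 395 in GlyR+IVM, 782 in DN-KATP and 453 in the control by its second, with GlyR+IVM lowest and DN-KATP highest at both. Besides gata3, the genes dlx3 and ventx1.1 had a probe set called higher in DN-KATP, against 5.6% of named genes. Ventx1.1 also had 1 called in GlyR+IVM, against 5.37%. Between the depolarized arrays gata3 was called higher in DN-KATP, against 5.62%. The calls for dlx3 came from weaker probe sets of dlx3.L, while dlx3.S had 2739 in GlyR+IVM, 3527 in DN-KATP and 3301 in control embryos. The epidermal keratin gene krt70.L had 14728 in GlyR+IVM, 15752 in DN-KATP and 13326 in the control, with log2 ratios to the control of 0.14 and 0.24.

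**Figure D3:**
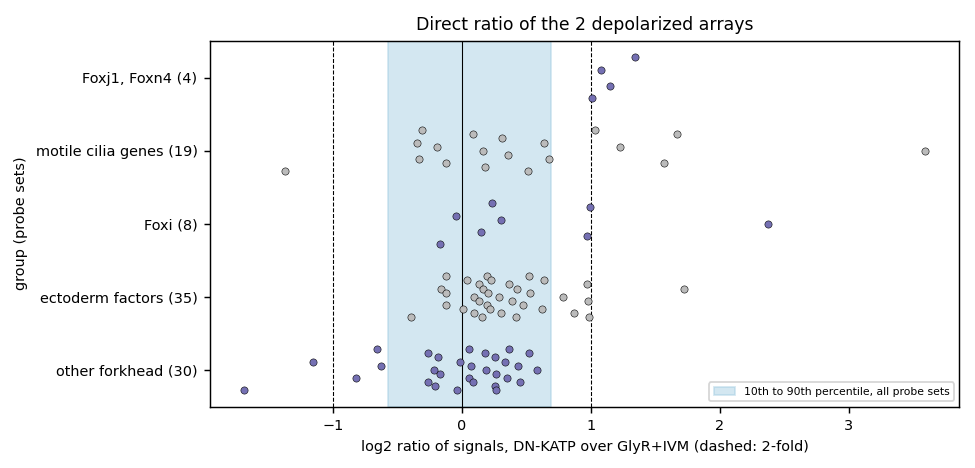
Log2 ratio of DN-KATP over GlyR+IVM, an array pair that does not involve the control, for each probe set that reached 40, in rows for Foxj1 with Foxn4 (grouped after their values were seen), cilia genes, Foxi, ectodermal genes and the 30 other forkhead probe sets, with the 10th to 90th percentile of all probe sets shaded. The 4 of Foxj1 and Foxn4, each called in this comparison, lie between 1.01 and 1.34, and the median of the 30 others is 0.07. Because the row was formed with its values known, the gap between these rows is no result of its own.

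Foxa proteins open chromatin in endoderm, and foxa4 acts in notochord and floor plate. The homeolog foxa4.L had 3842 in GlyR+IVM, 3741 in DN-KATP and 2904 in control embryos, and foxa4.S had 3980 in GlyR+IVM, 3509 in DN-KATP and 2475 in control embryos. Both depolarized arrays were above the control for both homeologs, with log2 ratios of 0.40 and 0.69 for GlyR+IVM and 0.37 and 0.50 for DN-KATP. For foxa1.L the signals were 795 in GlyR+IVM, 1193 in DN-KATP and 697 in the control at 1 probe set and 201 in GlyR+IVM, 200 in DN-KATP and 125 in control embryos at the other, and foxa1.S had 449 in GlyR+IVM, 386 in DN-KATP and 328 in the control. The main probe set of foxa2.L had 940 in GlyR+IVM, 1352 in DN-KATP and 778 in the control, 1.74-fold above the control in DN-KATP, the nearest of those that missed 2-fold there. A weak second one of foxa2.L had 40.8 in GlyR+IVM, 12.7 in DN-KATP and 21.4 in control embryos and missed 2-fold in GlyR+IVM at 1.91-fold. In all, the probe sets of Foxa above the control numbered 7 of 7 for GlyR+IVM and 6 of 7 for DN-KATP, with medians of 0.45 and 0.50. Of all probe sets 51.5% and 55% were above it. The weak one of foxa2.L reached 40 in GlyR+IVM alone, so its place above the control there was set by the floor. On the spike-in scale 4 of 7 were above in each array, with medians of 0.02 and 0.02. Of all 23003 probe sets 4285 and 4487 were above the control there, with medians of -0.42 and -0.43.

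Of 18 dorsal and endodermal genes with signal listed beside Foxa, 16 exceeded the control for GlyR+IVM and 12 for DN-KATP. Of named genes 48.5% and 48.9% did. The medians of the 18 were 0.31 and 0.28, beside -0.01 in both over named genes. Scaled to the spike-ins, 8 and 6 exceeded the control, beside 1062 and 1057 of the 7529 named genes. The endodermal factor sox17a.L had 1100 in GlyR+IVM, 1051 in DN-KATP and 692 in the control, and sox17a.S had 1723 in GlyR+IVM, 1753 in DN-KATP and 1165 in control embryos. Both depolarized arrays were above the control for both homeologs. The only gene of this list called was the head inducer cer1, lower in DN-KATP, with 2653 in GlyR+IVM, 1367 in DN-KATP and 2796 in the control. Both homeologs of frzb and of mixer were also below the control in DN-KATP, without a call. The lists overlap: gsc, lhx1 and mixer are also in the Nodal pathway list below, and otx2 in the neural plate list. Of named genes 5.37% were called higher and 3.87% lower in GlyR+IVM, and 5.6% higher and 3.61% lower in DN-KATP.

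Foxc1 and Foxc2 act in paraxial mesoderm. The signals of foxc2.L were 4512 in GlyR+IVM, 5102 in DN-KATP and 3773 in control embryos, those of foxc2.S were 1891 in GlyR+IVM, 1968 in DN-KATP and 1417 in the control for its first probe set and 2003 in GlyR+IVM, 1783 in DN-KATP and 1703 in control embryos for the other, and foxc1.L had 2182 in GlyR+IVM, 2479 in DN-KATP and 1976 in the control. All 4 were above the control in both arrays by at most 0.47 on the log2 scale. Under a common array median 3 of 4 were above it in DN-KATP. On the spike-in scale all 4 were below it in both, with medians of -0.19 and -0.10, beside -0.42 and -0.43 over all probe sets. Foxf1, of lateral plate and visceral mesoderm, was above the control in GlyR+IVM alone: foxf1.L had 516 in GlyR+IVM, 335 in DN-KATP and 367 in control embryos, and foxf1.S had 289 in GlyR+IVM, 250 in DN-KATP and 251 in the control. On the spike-in scale foxf1.S was below the control in GlyR+IVM too.

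Foxd3, known for neural crest and for the dorsal mesoderm of the frog gastrula, had 286 in GlyR+IVM, 162 in DN-KATP and 233 in control embryos for foxd3.L, and 510 in GlyR+IVM, 425 in DN-KATP and 453 in control embryos for foxd3.S. With the signals as deposited, DN-KATP was the lowest array and GlyR+IVM the highest for both homeologs, the reverse of Foxj1 and Foxi1. On the spike-in scale DN-KATP stayed lowest, with foxd3.L past 2-fold below the control at -1.01. There GlyR+IVM was below the control too, at -0.14 for foxd3.L and -0.26 for foxd3.S. The neural ectoderm factor foxd4l1.1.S had 1535 in GlyR+IVM, 1840 in DN-KATP and 1743 in the control, with log2 ratios to the control of -0.18 and 0.08. Its relative foxd4l1.2.L had 26.6 in GlyR+IVM, 36.3 in DN-KATP and 49.1 in control embryos and missed a 2-fold decrease in GlyR+IVM at 1.85-fold, which it passed after quantile normalization. Foxd1, a regulator of forebrain and kidney stroma in the mouse, had 72.8 in GlyR+IVM, 87.4 in DN-KATP and 95.1 in the control for foxd1.L. The neural gene foxb1.S had 871 in GlyR+IVM, 1043 in DN-KATP and 1047 in control embryos, level between DN-KATP and control. Of 18 neural plate genes with signal listed beside Foxd4l1, 10 exceeded the control for GlyR+IVM and 12 for DN-KATP, with medians of 0.03 and 0.10. Of named genes 48.5% and 48.9% did. The medians were -0.04 and -0.03 under a common array median, beside -0.07 and -0.14 over named genes. After scaling to the spike-ins 3 and 3 exceeded the control, beside 1062 and 1057 of the 7529 named genes. Their calls were sox15 higher and rax lower in GlyR+IVM, beside the 5.37% and 3.87% of named genes called, and pax3, pax6 and rax higher in DN-KATP, beside 5.6%. Between the depolarized arrays rax was called higher in DN-KATP, beside 5.62%. The sox15 call came from weak probe sets, while the brightest of sox15.L had 7932 in GlyR+IVM, 7353 in DN-KATP and 8840 in the control. The probe sets of rax and pax3 differed among themselves as well: rax.L had 67.1 in GlyR+IVM against 49.0 in the control by a probe set that was not called there, and the brightest of pax3.L was 1.67-fold above the control in DN-KATP.

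Foxh1, the Nodal partner, had 770 in GlyR+IVM, 798 in DN-KATP and 735 in control embryos for the measured probe set of foxh1.L, and at most 3.07 at the other. The measured one was within 0.12 on the log2 scale of the control in both arrays. In the Nodal pathway list 14 genes reached 40 and had medians of -0.16 and 0.20 in GlyR+IVM and DN-KATP, with 6 and 8 genes above the control, beside 48.5% and 48.9% of named genes. Scaling to the spike-ins gave medians of -0.59 and -0.29, with 3 and 1 genes above it. The named genes had medians of -0.45 and -0.49 there, with 1062 and 1057 of 7529 above it. Against the control the calls were acvr2b higher in GlyR+IVM and gdf1 lower in DN-KATP, beside 5.37% and 3.61% of named genes. Between the depolarized arrays eomes was called higher in DN-KATP, by eomes.S, and acvr2b lower, beside 5.62% and 4.34%. The calls of acvr2b came from a weak probe set with 46.9 in GlyR+IVM, 21.3 in DN-KATP and 22.4 in the control. The main one of acvr2b.S had 1717 in GlyR+IVM, 1544 in DN-KATP and 1469 in the control. For gdf1.S the signals were 382 in GlyR+IVM, 263 in DN-KATP and 730 in the control.

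The only forkhead probe set called in GlyR+IVM was that of the thyroid gene foxe1.L, with 52.1 in GlyR+IVM, 33.0 in DN-KATP and 20.5 in control embryos. The control was under 40, and with 32 added to every signal its log2 ratio was 0.68 in place of 1.35. For foxr1.L the signals were 72.5 in GlyR+IVM, 32.6 in DN-KATP and 39.6 in the control, over 40 in GlyR+IVM alone. Its 1.83-fold over the control was not called. The probe sets called lower in DN-KATP than in GlyR+IVM were foxr1.L and the weak one of foxa2.L. Both had DN-KATP and control signals under 40. With 32 added to every signal they were at -0.69 and -0.70 on the log2 scale, short of 2-fold.

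The broadly expressed members differed by less than 2-fold. Foxm1, which drives G2 and M phase genes, had 150 in GlyR+IVM, 179 in DN-KATP and 192 in control embryos for foxm1.S. Both depolarized arrays were below the control, by 0.36 and 0.10 on the log2 scale. Of 19 G2 and M phase genes with signal listed beside it, 5 exceeded the control for GlyR+IVM and 11 for DN-KATP. Of named genes 48.5% and 48.9% did. The medians of the 19 were -0.08 and 0.01. On the spike-in scale 1 and 1 exceeded the control, beside 1062 and 1057 of the 7529 named genes. The topoisomerase gene top2a was called higher in both arrays by its weaker probe set alone, with 211 in GlyR+IVM, 215 in DN-KATP and 92.7 in the control, while the brighter one of top2a.L had 4019 in GlyR+IVM, 3321 in DN-KATP and 2976 in the control. The survivin gene birc5 was called lower in GlyR+IVM by both probe sets of birc5.S. By the brighter of them birc5 was also called higher in DN-KATP than in GlyR+IVM, beside 5.62% of named genes. The shares called against the control were 5.37% higher and 3.87% lower in GlyR+IVM, and 5.6% higher in DN-KATP.

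Foxo proteins are held out of the nucleus by insulin and Akt signals. By its brightest probe set foxo3.L had 372 in GlyR+IVM, 310 in DN-KATP and 309 in control embryos, and by a second 46.9 in GlyR+IVM, 49.7 in DN-KATP and 52.3 in control embryos, so foxo3.L itself was near the control in both arrays. Of 15 Foxo target genes on the array 8 reached 40. By the mean over probe sets all 8 were above the control in each depolarized array, with medians of 0.53 and 0.53. Of named genes 48.5% and 48.9% were above it, with medians of -0.01 in both. Single probe sets were not all above it. The brightest of txnip.L and sesn3.L were below the control in DN-KATP, at -0.26 and -0.02, and sod2.S was level with it in GlyR+IVM, at 0.007. The count of genes depended on the scaling: 7 and 6 of the 8 were above the control after quantile normalization, 7 and 7 under a common array median, and 7 and 5 on the spike-in scale. On the spike-in scale 1062 and 1057 of the 7529 named genes were above it. The 8 had medians of 0.10 and 0.04 there, beside -0.45 and -0.49 over named genes. The stress gene sesn1.L had 97.9 in GlyR+IVM, 81.4 in DN-KATP and 36.8 in the control by its first probe set and 92.1 in GlyR+IVM, 92.9 in DN-KATP and 43.4 in control embryos by the other, at least 2-fold above the control in both arrays at both. Its control signal was under the floor of 40 at the first and close to it at the other, so these ratios rest on weak control signals. The stress gene gadd45g.L had 1952 in GlyR+IVM, 1802 in DN-KATP and 1397 in the control, and gadd45g.S had 1285 in GlyR+IVM, 1178 in DN-KATP and 734 in control embryos, above the control in both arrays without reaching 2-fold. Also called was gadd45a, higher in DN-KATP by 1 of 4 probe sets, where gadd45a.S had 237 in GlyR+IVM, 395 in DN-KATP and 190 in the control. Txnip was called lower in DN-KATP than in GlyR+IVM, where txnip.L had 599 in GlyR+IVM, 296 in DN-KATP and 355 in the control. The shares of named genes called were 5.37% for higher in GlyR+IVM, 5.6% for higher in DN-KATP and 4.34% for lower in DN-KATP than in GlyR+IVM. Of 12 insulin and PI3-kinase genes with signal, 9 exceeded the control for GlyR+IVM and 8 for DN-KATP, with medians of 0.29 and 0.09. Of named genes 48.5% and 48.9% did. On the spike-in scale 4 and 1 of the 12 exceeded the control, beside 1062 and 1057 of the 7529 named genes. Their calls were igf3 higher in GlyR+IVM, by 1 of 2 probe sets, and akt1 higher in DN-KATP, beside 5.37% and 5.6% of named genes. Between the depolarized arrays igf3 was lower in DN-KATP than in GlyR+IVM, beside 4.34%.

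Among the others, foxk2.L had 812 in GlyR+IVM, 1101 in DN-KATP and 805 in control embryos, foxn3.S, of a checkpoint regulator, had 430 in GlyR+IVM, 549 in DN-KATP and 373 in the control, and foxn2.S had 617 in GlyR+IVM, 794 in DN-KATP and 732 in control embryos. DN-KATP was the highest array for these 3, all under 2-fold. Of the repressor genes, foxp1.S had 88.7 in GlyR+IVM, 93.4 in DN-KATP and 69.5 in the control, and foxp4.S had 82.4 in GlyR+IVM, 104 in DN-KATP and 97.5 in control embryos.

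Both homeologs reached 40 for 8 genes. With the signals as deposited, in GlyR+IVM the L and S copies lay on the same side of the control for 8 of these 8, and in DN-KATP for 7 of 8, the exception being foxi4.2, with -0.02 for L and 0.72 for S. Over 1570 homeolog pairs of the array 60.4% and 63.6% had the same side. On the spike-in scale the copies of foxa4, foxf1 and foxi2 lay on opposite sides of the control in GlyR+IVM. Those of foxa1, foxa4, foxi2, foxi4.2 and foxj1 did so in DN-KATP, by the mean over probe sets. The share over all pairs was not computed on that scale. The median absolute difference between L and S was 0.14 for GlyR+IVM and 0.37 for DN-KATP over the forkhead pairs, beside 0.29 and 0.29 over all pairs. Copies so alike in sequence can share hybridization, which these values do not separate.

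**Figure D4:**
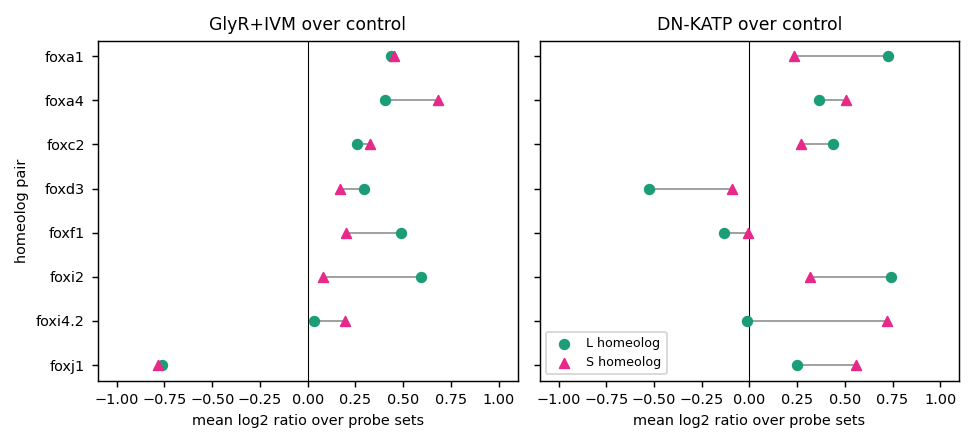
Mean log2 ratio to the water-injected control over the probe sets that reached 40, for the L homeolog (circles) and the S homeolog (triangles) of 8 forkhead genes, in GlyR+IVM (left) and DN-KATP (right). The foxj1 homeologs lie at -0.76 and -0.78 on the left and at 0.25 and 0.56 on the right, where the gap of foxi4.2, 0.73, is the widest.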

How the data were processed

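Total RNA of 50 pooled embryos per condition was hybridized to 1 array each. The intensity values deposited by the authors are MAS5 signals on a linear scale, per the labels normalized array by array with the MAS5 algorithm in Bioconductor, with the version not given in the sources used here. They were used as deposited. The 96 control probe sets were left out. Probe sets were named by the platform annotation, of which 15495 carry a single symbol, and gene IDs were matched to RefSeq.

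A call needed a ratio of at least 2 and a signal of at least 40 in the higher array, after the study's fold rule with 40 in place of a present call. For a gene, log2 ratios were averaged over its probe sets that reached 40. Named are the called members, those of highest control signal, homeolog pairs and those nearest to 2-fold, and other members as examples chosen after their values were seen. Members and gene lists were chosen with earlier results of these data known. Alternatives were signal floors of 0, 20 and 100, folds of 1.5 and 3, quantile normalization, a common median, hybridization spike-ins of at least 100, 32 added to every signal, and leaving out _s_at, _x_at and _a_at probe sets. The direct comparison of the depolarized arrays was added after seeing the data. With 1 array per condition no test was run, and the number of arrays limits the precision. Python 3.11.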

Additional observations from a re-analysis of the deposited data

How the results depend on the processing

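With 1 array per condition, every number of calls below describes these arrays alone, and no paired analysis was possible because no condition has a second array. The 4 forkhead probe sets called higher in DN-KATP became 2 under a common array median, 1 on the spike-in scale (foxi1.L), 9 at a fold of 1.5 and 0 at a fold of 3. The 1 called higher in GlyR+IVM became 0 with 32 added to every signal, with scaling to the spike-ins, with a floor of 100 or at a fold of 3, 3 without a floor and 6 at a fold of 1.5. The 0 called lower in GlyR+IVM became 4 on the spike-in scale (foxi1.L, foxj1.L, foxj1.S and foxd4l1.2.L), 4 without a floor, 2 with a floor of 20, 2 after quantile normalization and 4 at a fold of 1.5. The 0 called lower in DN-KATP became 1 on the spike-in scale (foxd3.L) and 1 without a floor. The 0 called higher in both became 1 without a floor and 2 at a fold of 1.5, and 0 were called lower in both under every alternative listed. In the direct comparison, the 5 higher in DN-KATP than in GlyR+IVM became 2 with 32 added, 9 without a floor, 8 with a floor of 20, 8 at a fold of 1.5, 1 at a fold of 3, and 4 under a common array median, 4 after quantile normalization and 4 on the spike-in scale, where foxj1.L was just under 2-fold. The 2 lower became 0 with 32 added, 1 on the spike-in scale, 5 without a floor, 0 with a floor of 100, 5 at a fold of 1.5 and 1 at a fold of 3. The median log2 ratio of the family turned to -0.27 for GlyR+IVM and -0.20 for DN-KATP on the spike-in scale, where a floor applied to the scaled signals also leaves slightly other probe sets, and was 0.15 in DN-KATP with a common median. Scaling to the spike-ins brought their mean log2 signal in each array to that of the control array. It lowered all signals of both depolarized arrays, because their spike-in signals as deposited were higher than those of the control. The cause of this offset was not tested. Signals under 40 limit what can be read of foxe1.L, foxd4l1.2.L, foxr1.L, the weak probe set of foxa2.L and the 10 probe sets under 40.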
